A study of Homo sapiens with 6 samples.

Results

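Levels of transcripts were compared between U2OS cells depleted of E2F7 and control cells 3 h after the cells were let go from a block at the start of S phase. U2OS is an established human osteosarcoma line. The siE2F7 cells carried siRNAs against E2F7 and the siNT cells control siRNAs without a target. All cells had first been held for 24 h in 4 mM hydroxyurea, a ribonucleotide reductase inhibitor that starves replication of deoxynucleotides, and then washed into complete medium. The 3 h cells stand for S phase, and the same 2 arms taken at 0 h (the G1/S transition) and 12 h (the G2/M boundary) served as background. Each arm had 1 library at each time, so differences at 3 h are values with no replicate check and no p-value.

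The values are FPKM, fragments mapped to a gene scaled by its transcript length and by the size of the library, as the authors deposited them. The comparison took genes whose mean over the 3 h pair was at least 5 FPKM, leaving out small RNA entries and genes listed at 0. This kept 8751 of the 12475 genes listed at 3 h and of 13161 listed at any time. FAM160B1, at a mean of 5.004 FPKM, was the gene just inside this limit and AP4E1, at 4.996 FPKM, the gene just outside it. The log2 ratio used throughout is log2((siE2F7 + 0.1)/(siNT + 0.1)), so a positive value means higher in siE2F7. In bulk RNA, less transcript per cell cannot be told apart from fewer cells in the phase that makes it.

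E2F7 and its relative E2F8 are atypical members of the E2F family. They carry a pair of DNA-binding domains, need no DP partner and repress genes that the activators E2F1, E2F2 and E2F3 switch on at the G1/S boundary. Known E2F targets include genes that license origins, copy DNA, make nucleotides and drive entry into S phase, and E2F7 is itself an E2F target, as are E2F1 and E2F8. Their repression late in S phase helps to end the G1/S programme.

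The knockdown was partial. At 3 h E2F7 (hg19, chromosome 12, 77415026 to 77459360) stood at 10.6 FPKM in siE2F7, against 29.4 FPKM in siNT, which left 36.1% of the control level. The share left was 46.7% at 0 h and 33.3% at 12 h. The siNT level of E2F7 was thus higher in the 3 h library than in those of 0 h (20.3 FPKM) and 12 h (16.6 FPKM), although it is not known whether the tables of different times were scaled together. Cell cycle markers were set beside the labels. PLK1, a mitotic kinase, had 23.5 FPKM in siE2F7 and 26.8 FPKM in siNT at 3 h, close to its 0 h levels and far below the 109 and 81.6 FPKM of 12 h. CCNE1, the G1/S cyclin E1, had 71.1 FPKM in the siNT library of 3 h, against 92.5 FPKM in that of 0 h and 24.4 FPKM in that of 12 h. In siE2F7 it had 165 FPKM at 3 h, 170 FPKM at 0 h and 51.1 FPKM at 12 h. Both markers set 12 h apart, but neither clearly separates 3 h from 0 h. Of 10 osteoblast lineage markers, 6 were in the 3 h tables. SPARC, a bone matrix protein, and COL1A1 were abundant, at 451 and 306 FPKM in siE2F7 and 447 and 363 FPKM in siNT. The others were low. TNFRSF11B, ALPL and SPP1 had 16.2, 8.60 and 6.94 FPKM in siE2F7 and 18.8, 10.96 and 7.35 FPKM in siNT. RUNX2 was below the filter, at 3.00 FPKM in siE2F7 and 4.12 FPKM in siNT. The markers BGLAP, SP7, IBSP and COL1A2 were not in these tables. Of 9 blood and endothelial markers LAPTM5 alone was in them, at 1.79 FPKM in siE2F7 and 1.75 FPKM in siNT. Of 6 epithelial markers 5 were listed at 3 h. The 3 that met the filter, KRT8, KRT18 and CLDN4, summed to 221 FPKM in siE2F7 and 264 FPKM in siNT. EPCAM and CDH1 were below the filter, at 2.72 and 1.55 FPKM in siE2F7 and 3.24 and 1.69 FPKM in siNT.

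At 3 h, 56 genes were at least 2-fold higher in siE2F7, 0.64% of the 8751, and 33 were at least 2-fold lower, 0.377%. At 1.5-fold the counts were 256 higher (2.93%) and 191 lower (2.18%). These shares of all genes are the background for the counts of each gene list below. The middle 95% of all genes lay between log2 ratios of -0.57 and 0.62, with a median of 0.01. This range narrowed from -0.65 to 0.65 among 2451 genes of 5 to 10 FPKM to -0.39 to 0.63 among 1398 genes of 50 FPKM or more. In that most abundant class 18 genes were at least 2-fold higher and 1 was at least 2-fold lower. The same limits applied to 0 h gave 0.357% higher and 0.279% lower, and to 12 h gave 0.958% and 0.901%. At 1.5-fold they gave 2.03% higher and 2.44% lower at 0 h, and 3.84% and 4.54% at 12 h. The genes next to the limit were TMEM200C (log2 ratio 1.01) inside and IMMP1L (0.99) outside on the higher side, and ZXDB (-1.01) inside and ARHGAP18 (-0.999) outside on the lower side.

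**Figure D1:**
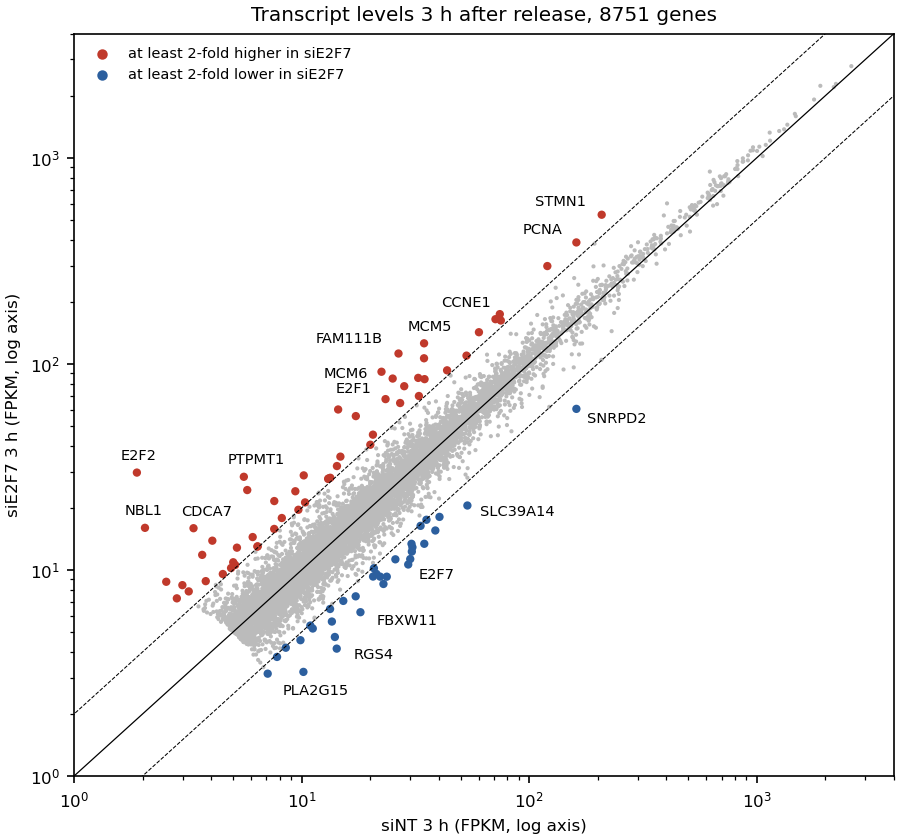
FPKM of 8751 genes in the siE2F7 library (vertical, log axis) and the siNT library (horizontal, log axis) of 3 h. The solid line marks equal levels and the dashed lines a 2-fold difference, with 56 genes above (red) and 33 below (blue). E2F2 lies farthest above the line.

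The gene farthest above its control was E2F2, an activator E2F. It stood at 29.7 FPKM in siE2F7, against 1.89 FPKM in siNT, a log2 ratio of 3.91. Next to it among the E2F family were E2F8, at 11.8 FPKM in siE2F7 and 3.65 FPKM in siNT (1.67), and E2F1, at 67.4 FPKM in siE2F7 and 23.4 FPKM in siNT (1.53). These 3 thus include activators as well as the other atypical repressor. The third activator, E2F3, differed less, with 13.8 FPKM in siE2F7 and 11.04 FPKM in siNT (0.31). MYBL2, which joins the MuvB complex in S phase to switch on mitotic genes, had 215 FPKM in siE2F7 and 141 FPKM in siNT (0.61). E2F4 and E2F6, which act in repressor complexes, had ratios of 0.03 and -0.01. The pocket proteins RB1 and RBL2, which hold E2Fs in check, were at -0.23 and -0.25, inside the range of most genes. In the list of E2Fs and pocket proteins 15 of 18 genes met the filter. Of these, 3 were at least 2-fold higher and 1, E2F7 itself, at least 2-fold lower, and the list median was 0.21. TFDP2 and LIN37 were listed below the filter, both at about the same level in the 2 libraries.

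Many genes of origin licensing and firing were higher in siE2F7. Licensing loads the MCM2-7 helicase onto origins before S phase, and CDC45 and GINS then turn it into the active helicase. All 27 listed genes met the filter. Of these, 7 were at least 2-fold higher and 12 at least 1.5-fold higher, 0 were lower at either limit, and the list median was 0.42, against 0.01 for all genes. The highest was the helicase subunit MCM6, at 91.5 FPKM in siE2F7 and 22.4 FPKM in siNT (log2 ratio 2.02). MCM5 had 126 FPKM in siE2F7 and 34.5 FPKM in siNT (1.86). Subunits of the same ring differed in size. MCM2 was at 1.28 and MCM3 at 1.23, while MCM4 (0.76) and MCM7 (0.62) were under 2-fold. GINS showed the same spread, with GINS2 at 1.62, from 106 FPKM in siE2F7 and 34.5 FPKM in siNT, GINS3 at 1.03, and GINS1 and GINS4 at 0.12 and 0.10. CDC45 had 142 FPKM in siE2F7, against 60.1 FPKM in siNT (1.24). CDC6, a loader of the helicase, was at 0.59, and its partner CDT1 at 0.32. The lowest members were ORC2, of the origin recognition complex, at 7.53 FPKM in siE2F7 and 11.1 FPKM in siNT (-0.56), and GMNN, geminin, the inhibitor of CDT1 (-0.33).

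At the fork the sliding clamp PCNA led, with 388 FPKM in siE2F7 and 161 FPKM in siNT (1.27). PCNA shares its locus with PCNA-AS1, an antisense entry at 298 FPKM in siE2F7 and 120 FPKM in siNT. Nothing in the sources used here says that strand was counted, so reads of the pair may have been mixed. Of 33 genes of the fork and the polymerases, all of which met the filter, 2 were at least 2-fold higher, 9 at least 1.5-fold higher and 0 lower, with a median of 0.44. The second past 2-fold was TIPIN, of the fork protection complex, at 27.99 FPKM in siE2F7 and 13.4 FPKM in siNT (1.06). Clamp loader genes followed, with DSCC1 at 0.82, RFC2 at 0.82 and RFC4 at 0.77. The polymerase alpha subunit POLA1 (0.54) and the ligase LIG1 (0.55) were under 1.5-fold. In all, 32 of the 33 ratios were above 0, where 52.8% of all genes were. POLD4, a small subunit of polymerase delta, was the exception at -0.21.

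**Figure D2:**
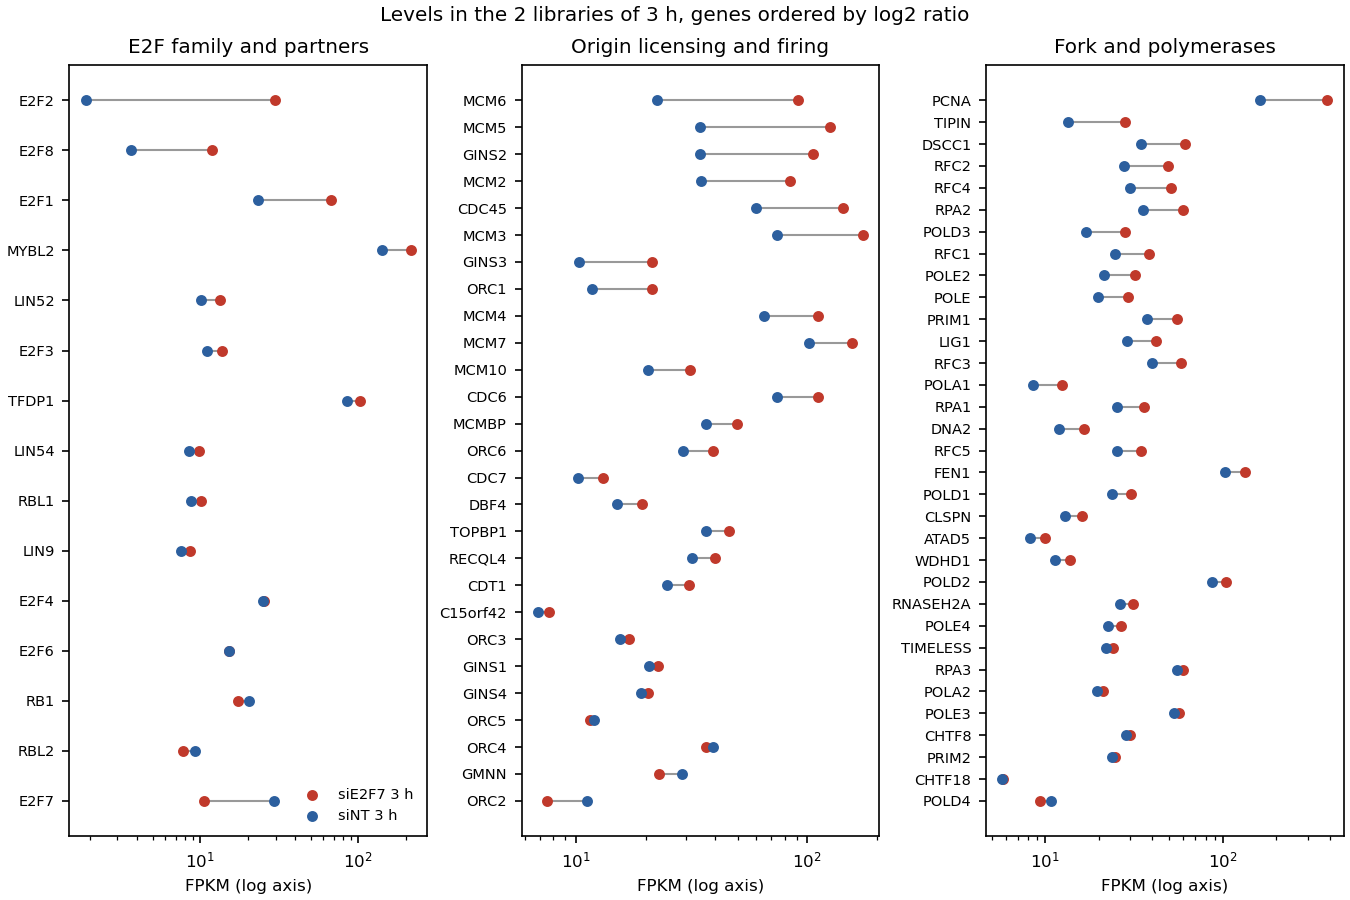
FPKM (log axis) of each listed gene that met the filter in the siE2F7 (red) and siNT (blue) libraries of 3 h, joined by a line, for the E2F family, origin licensing and firing, and the fork. Genes are ordered by log2 ratio, from MCM6, PCNA and E2F2 at the top to ORC2, POLD4 and E2F7 at the bottom.

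Nucleotide supply was split. Of 18 listed genes 17 met the filter, 6 were at least 1.5-fold higher and 0 lower, and the median was 0.14. DUT, which removes dUTP, had 85.5 FPKM in siE2F7 and 32.5 FPKM in siNT (1.39). RRM2, the small subunit of the enzyme that hydroxyurea blocks, had 383 FPKM in siE2F7 and 194 FPKM in siNT (0.98). The salvage kinases DCK and TK1 were at 0.97 and 0.84, and the thymidylate synthase TYMS at 0.69. RRM1, the large subunit, was at 0.44. UMPS, of pyrimidine synthesis, was lowest at -0.27.

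Some drivers and some brakes of S phase entry were higher in siE2F7, 7 of 19 genes at 1.5-fold. CCNE2, cyclin E2, had 55.8 FPKM in siE2F7 and 17.3 FPKM in siNT (1.68), and shares its locus with INTS8. CCNE1 had 165 FPKM in siE2F7 and 71.1 FPKM in siNT (1.21). Of the CDK inhibitors, CDKN2C had 35.5 FPKM in siE2F7 and 14.8 FPKM in siNT (1.26), and CDKN2D had 15.8 FPKM in siE2F7 and 7.57 FPKM in siNT (1.05). The phosphatase CDC25A, which frees CDK2, was at 0.92, and CDKN1A, the p21 inhibitor, at 0.73. The D cyclins CCND1 and CCND2 were at -0.23 and -0.25. Over the list, 19 of 20 genes met the filter, 4 were at least 2-fold higher and 0 at least 1.5-fold lower, with a median of 0.33.

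Repair genes showed a few large differences among many small ones. In the homologous recombination list 25 of 27 genes met the filter and 3 were at least 1.5-fold higher, against 2.93% of all genes. In it 0 were lower and the median was 0.28. RMI2, of the BLM complex, was at 0.94 and the end resection factor RBBP8 at 0.73. In the Fanconi anaemia list UHRF1, which reads hemimethylated DNA behind the fork, had 77.9 FPKM in siE2F7 and 28.2 FPKM in siNT (1.46), and FANCE was at 0.75. Of 16 genes in that list 12 met the filter, 2 were at least 1.5-fold higher, 0 lower, and the median was 0.37. The mismatch repair list had 7 of 9 genes past the filter, 3 at least 1.5-fold higher (among them PCNA, and MSH6 at 0.96) and 0 lower, with a median of 0.52. In the checkpoint list 15 of 17 met the filter and 2 were at least 1.5-fold higher, CHEK1 (0.78) and WEE1 (0.71), with 0 lower and a median of 0.13. These lists overlap each other or other lists, since PCNA, EXO1 and UHRF1 are in more than 1. UHRF1 is also in the list of histone supply and chromatin assembly.

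Most histone transcripts that met the filter were lower in siE2F7, and 6 of 17 genes of histone supply and chromatin assembly were at least 1.5-fold higher. Replication-dependent histone genes are switched on in S phase and their usual transcripts end in a stem loop in place of a poly(A) tail. Whether poly(A) RNA was selected here is not given in the sources used. Of 60 such genes, 21 were in the 3 h tables and 7 met the filter. Of these 7, 5 were at least 1.5-fold lower in siE2F7, against 2.18% of all genes, 0 were higher, and the median was -0.75. HIST1H2BK had 61.8 FPKM in siE2F7 and 122 FPKM in siNT (-0.98). HIST1H2BD, HIST1H2BC and HIST1H2BE, at 3.97 to 4.59 FPKM in siE2F7 and 7.28 to 7.90 FPKM in siNT, were at -0.86, -0.82 and -0.75. The linker histone HIST1H1C stood level at 23.8 FPKM in siE2F7 and 23.7 FPKM in siNT. Of the 14 genes below the filter, which were not counted, 12 had less FPKM in siE2F7 and 2, HIST1H4J and HIST1H4K, had more. SLBP, the protein that binds the stem loop, had 69.8 FPKM in siE2F7 and 32.7 FPKM in siNT (1.09). The chromatin assembly factor CHAF1A and the remodeller HELLS were at 0.80 and 0.84. CDCA7, a partner of HELLS, had 15.9 FPKM in siE2F7 and 3.35 FPKM in siNT (2.22). LSM10, a subunit of the U7 particle that trims histone transcripts, was at -0.75. Over the list of histone supply and chromatin assembly, 17 of 19 genes met the filter, LSM10 alone was at least 1.5-fold lower, and the median was 0.44.

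Genes of mitosis had small differences at 3 h, most of them above 0. Of 45 listed, 44 met the filter, and 2 were at least 1.5-fold higher, against 2.93% of all genes. These were the spindle protein NUSAP1 (0.67) and the kinetochore subunit SPC25 (0.66). None was lower at this limit, the nearest being the kinase AURKA at -0.43, and the median was 0.21. Ratios were above 0 for 35 of the 44, where 52.8% of all genes were. Among the 43 listed at all times the median was 0.03 at 0 h and 0.45 at 12 h, and 33 of them had ratios that climbed over the 3 times in order, against 15.8% of all genes. In the cohesin and condensin list 20 of 21 met the filter. STAG2 alone was at least 1.5-fold higher, against 2.93% of all genes, with 21.3 FPKM in siE2F7 and 11.7 FPKM in siNT (0.87). In this list 19 of the 20 ratios were above 0, and the median was 0.27. In the list of the anaphase-promoting complex, the ligase that ends mitosis, 18 of 19 met the filter and the median was 0.01. Its outlying members were its inhibitor FBXO5 (0.64) and the subunit ANAPC13, at 9.27 FPKM in siE2F7 and 23.7 FPKM in siNT (-1.34). ANAPC13 shares its locus with CEP63.

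**Figure D3:**
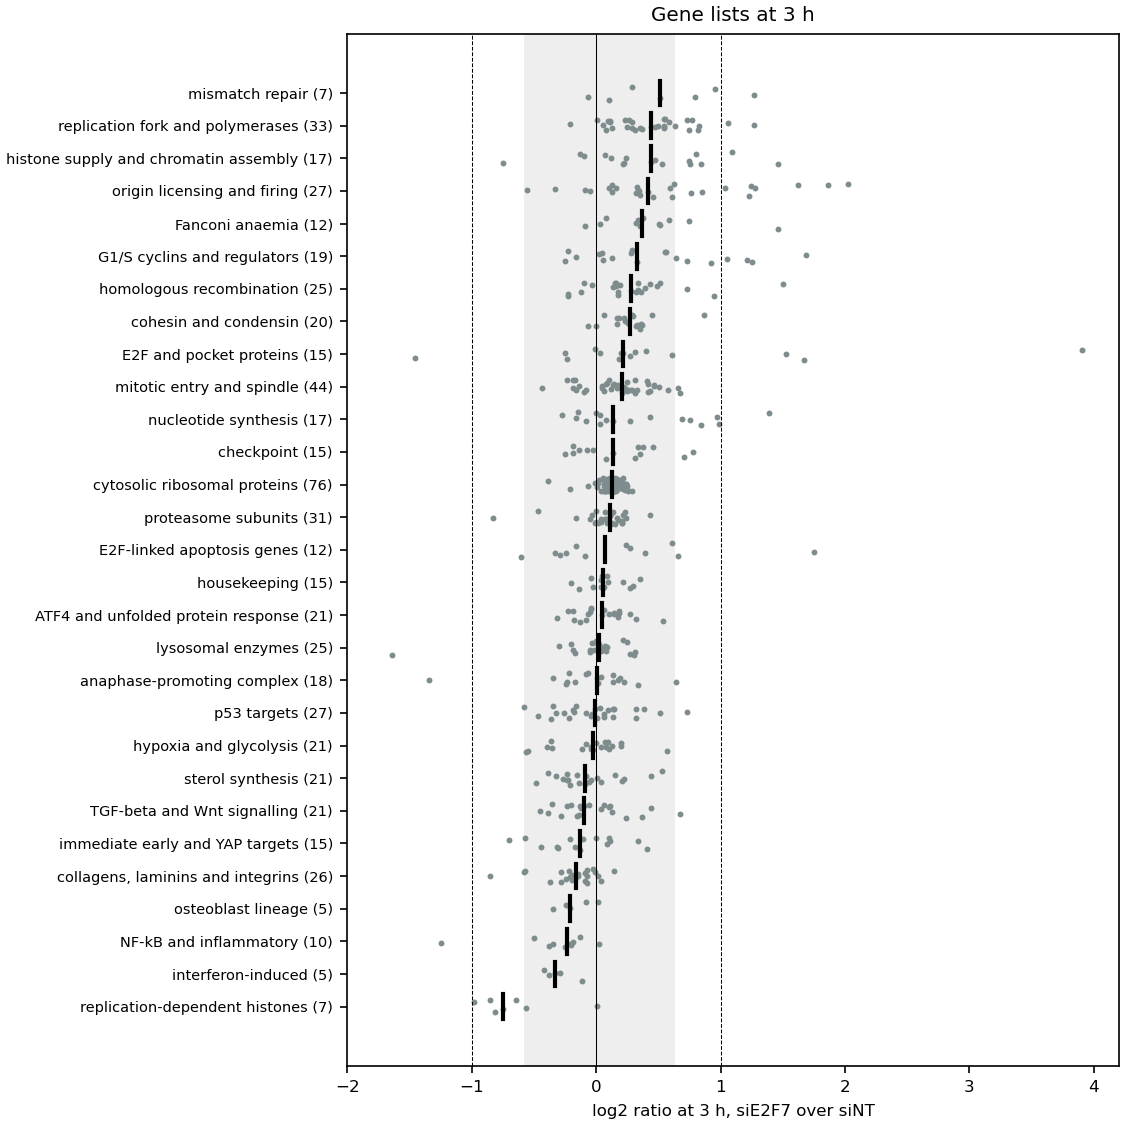
Log2 ratio (siE2F7 over siNT) at 3 h of each member that met the filter (grey points), by gene list, with its median (black bar) and the number of members in brackets. The grey band holds the middle 95% of all 8751 genes (-0.57 to 0.62) and dashed lines mark 2-fold. Mismatch repair, fork, chromatin assembly and licensing lists lie at the top and replication-dependent histones at the bottom.

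Other genes among the 15 highest have varied roles. FAM111B, a serine protease, had 112 FPKM in siE2F7 and 26.6 FPKM in siNT (2.07). WDR76 had 24.4 FPKM in siE2F7 and 5.76 FPKM in siNT (2.06), and the zinc finger gene ZNF367 had 60.1 FPKM in siE2F7 and 14.5 FPKM in siNT (2.05). The kinase PIM1 had 84.8 FPKM in siE2F7 and 25.1 FPKM in siNT (1.75). NTN1, the guidance protein netrin 1, had 13.9 FPKM in siE2F7 and 4.05 FPKM in siNT (1.75). TP73, of the p53 family and a known E2F1 target, had 8.76 FPKM in siE2F7 and 2.54 FPKM in siNT (1.75). PTPMT1, a mitochondrial phosphatase of cardiolipin synthesis, had 28.3 FPKM in siE2F7 and 5.57 FPKM in siNT (2.32). PTPMT1 and TP73 share a locus with other entries, where reads may have been split. NTN1 and TP73 were under 5 FPKM in siNT and met the filter only through siE2F7. Of the 56 genes, 21 were in a list and 10 share a locus. Of all 8751 genes compared, 1410 share a locus, and the number in a list was not counted.

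Promoters of the highest genes are shown because genes of several lists were higher together and E2F factors bind a known sequence. RefSeq promoters (GRCh38.p14, from 250 bases before to 50 after the start) were searched on both strands for TTTCCCGC, TTTCGCGC, TTTGCCGC and TTTGGCGC, forms of the E2F consensus. Of the 56 genes at least 2-fold higher, 44 had a promoter in the table and 16 of these (36.4%) held a match. Of the 33 lower genes, 27 had one and 2 (7.41%) held a match. The share was 5.90% of 7016 promoters of all genes compared, and 3.33% of all 27305 promoters in the table. It was 15.8% of 152 genes between 1.5-fold and 2-fold higher and 2.54% of 118 between 1.5-fold and 2-fold lower. In the licensing and fork lists together it was 40.0% of 50. The motif TTCCCGCC, which overlaps the first by 7 bases, gave 27.3% of the 44, 3.70% of the 27 and 5.77% of all compared. A match is a description of letters, not a bound site. In the windows below, 5′ to 3′ on the gene's strand, capitals mark the match nearest the start.
E2F2: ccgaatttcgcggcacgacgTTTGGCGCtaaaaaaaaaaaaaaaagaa
PTPMT1: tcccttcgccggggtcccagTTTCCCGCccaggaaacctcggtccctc
CDCA7: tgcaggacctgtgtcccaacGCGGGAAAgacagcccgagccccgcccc
ZNF367: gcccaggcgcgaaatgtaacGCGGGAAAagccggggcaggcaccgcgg
MCM6: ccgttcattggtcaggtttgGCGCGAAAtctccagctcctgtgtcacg
TP73: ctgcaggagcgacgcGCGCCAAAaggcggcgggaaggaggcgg
GINS2: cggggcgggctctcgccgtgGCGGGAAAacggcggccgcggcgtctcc
These lie at chr1:23531248-23531295 (minus strand, E2F2), chr11:47565382-47565429 (plus, PTPMT1), chr2:173354787-173354834 (plus, CDCA7), chr9:96418364-96418411 (minus, ZNF367), chr2:135876502-135876549 (minus, MCM6), chr1:3652266-3652308 (plus, TP73) and chr16:85688958-85689005 (minus, GINS2). With the start as position 0, the first base of the match is at -21 in ZNF367, -31 in GINS2, -42 in E2F2, -65 in CDCA7, -86 in MCM6, -197 in PTPMT1 and -235 in TP73. MCM6 held 4 matches in its promoter and ZNF367 2. Overlapping matches were counted apart, and in the MCM6 window TTTGGCGC overlaps the marked match, so matches are not separate sites. No match stood in the windows of PIM1 and NBL1, which were also among the 15 highest. Of these 15, 9 had a promoter to search. Of the 15 lowest, 12 had one and 1, UGGT1, held a match, while E2F7 held none.

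Of the 33 genes at least 2-fold lower, 4 were in any list, E2F7 among them. The share of all genes in a list was not counted, so this number has no background. The lowest was RGS4, which shuts off G protein signals, at 4.15 FPKM in siE2F7 and 14.3 FPKM in siNT (-1.76). PLA2G15, a lysosomal phospholipase, had 3.20 FPKM in siE2F7 and 10.2 FPKM in siNT (-1.64). In the lysosomal list, which leaves out GALC, it was the only one of 25 genes past 1.5-fold, and the list median was 0.02. FBXW11, a substrate receptor of an SCF ubiquitin ligase, had 6.23 FPKM in siE2F7 and 18.1 FPKM in siNT (-1.53). SNRPD2, a core protein of spliceosomal particles, was the most abundant, with 60.5 FPKM in siE2F7 and 161 FPKM in siNT (-1.41). The protease CAPN1 had 8.54 FPKM in siE2F7 and 22.9 FPKM in siNT (-1.41). SLC39A14, a zinc and iron importer, had 20.5 FPKM in siE2F7 and 53.5 FPKM in siNT (-1.38). UGGT1, which checks glycoprotein folding in the endoplasmic reticulum, was at -1.31, and the lysosomal enzyme GALC at -1.26. The remaining members of the 15 lowest were C15orf38, ARL2BP, EPDR1, PPPDE1, ANAPC13, BIRC3 and E2F7, with ratios from -1.25 (BIRC3) to -1.55 (C15orf38, which shares a locus with AP3S2). RGS4 and PLA2G15 were under 5 FPKM in siE2F7 and met the filter only through siNT.

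Few inflammatory, interferon and matrix genes differed by 1.5-fold, with 1 of 10, 0 of 5 and 1 of 26 lower and 0 higher, against 2.18% of all genes lower. Most of their ratios were below 0, where 52.8% of all genes were above it. Of 19 NF-kB and inflammatory genes 10 met the filter. BIRC3, an inhibitor of apoptosis, had 12.9 FPKM in siE2F7 and 30.7 FPKM in siNT (-1.25), and no other member was past 1.5-fold. The cytokine gene LIF was at -0.50 and the chemokine gene CCL2 at -0.38, and the median was -0.23. Of 25 interferon-induced genes 5 met the filter, all 5 with ratios below 0 and none past 1.5-fold (median -0.33). Of those below the filter, ISG20 was listed at 1.08 FPKM in siE2F7 and 4.08 FPKM in siNT, and DDX58 at 2.01 FPKM in siE2F7 and 4.21 FPKM in siNT, while OAS3 was higher in siE2F7. Of 32 collagens, laminins and integrins 26 met the filter, 3 of them had ratios above 0, and the median was -0.17. ITGA5, the fibronectin receptor subunit, had 22.2 FPKM in siE2F7 and 40.1 FPKM in siNT (-0.85). Of 6 epithelial markers 3 met the filter, with CLDN4 at -0.99 and the keratin genes KRT8 and KRT18 at -0.22 and -0.25. All 5 osteoblast lineage genes that met the filter were within 1.5-fold (median -0.21).

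The medians of stress and signalling lists lay near 0, although some members did not. Of 30 p53 targets 27 met the filter, and the median was -0.01. CDKN1A alone was past 1.5-fold, where 2.93% of all genes were higher and 2.18% lower. TP53INP1 was lowest at -0.58. Of 13 E2F-linked apoptosis genes 12 met the filter, with ratios from -0.60 to 1.75. Of these 12, 3 were at least 1.5-fold higher and 1 was at least 1.5-fold lower, against 2.93% and 2.18% of all genes. Among the higher were TP73 and BCL2L11 (0.66), which encodes the pro-death protein BIM. The list median was 0.07. Leaving out genes with a shared locus turned it to -0.13. The immediate early list (15 of 23 genes) had 1 gene past 1.5-fold, the phosphatase gene DUSP5 at -0.70, and a median of -0.13. The TGF-beta and Wnt list (21 of 24) likewise had 1, the inhibitor ID3 at 0.67, and a median of -0.10. None was past 1.5-fold in the lists of hypoxia and glycolysis (21 of 28 genes, median -0.02), the ATF4 and unfolded protein response (21 of 21, median 0.05), sterol synthesis (21 of 22, median -0.09) and housekeeping (15 of 15, median 0.05, or -0.02 after quantile normalization of the 3 h pair).

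The 3 h differences of single genes mostly had the same direction at the other times, which are separate libraries with their own controls. Of the 56 genes at least 2-fold higher at 3 h, 56 were above 0 at 0 h and 55 at 12 h, and 25 and 45 of them were at least 2-fold higher there. Of all genes compared and listed at every time, 30.5% were above 0 at both 0 h and 12 h. The median ratio of the 56 was 0.95 at 0 h, 1.27 at 3 h and 1.40 at 12 h, and for 37 of them the ratio climbed over the times in order, against 15.8% of all genes. MCM6 was of this kind, at 1.75, 2.02 and 3.04, and so was TP73, at 1.25, 1.75 and 2.58. Selection by the 3 h ratio favours a largest value at 3 h, which held for 17 of the 56. These included SLBP, with 0.64, 1.09 and 0.63, UHRF1, with 0.98, 1.46 and 1.18, and CDKN2D, with 0.32, 1.05 and 0.55. The 33 lower genes were below 0 at both other times, where 41.4% of all genes were, with medians of -0.98, -1.20 and -1.20. They include E2F7, the siRNA target, without which the medians of the other 32 were -0.96, -1.20 and -1.20. Of the 33, 10 had ratios in falling order (9 of 32 without E2F7), against 18.3% of all genes. RGS4 (-0.82, -1.76 and -1.21) was among the 17 of these 33, chosen in the same way, whose ratio was most negative at 3 h. The share of all genes with their largest or most negative ratio at 3 h was not counted. Across 8721 genes, ratios at 3 h had Spearman correlations of 0.53 with 0 h and 0.61 with 12 h, and Pearson correlations of 0.65 and 0.71. This describes genes, which are not independent replicates, in libraries made with the same siRNAs.

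**Figure D4:**
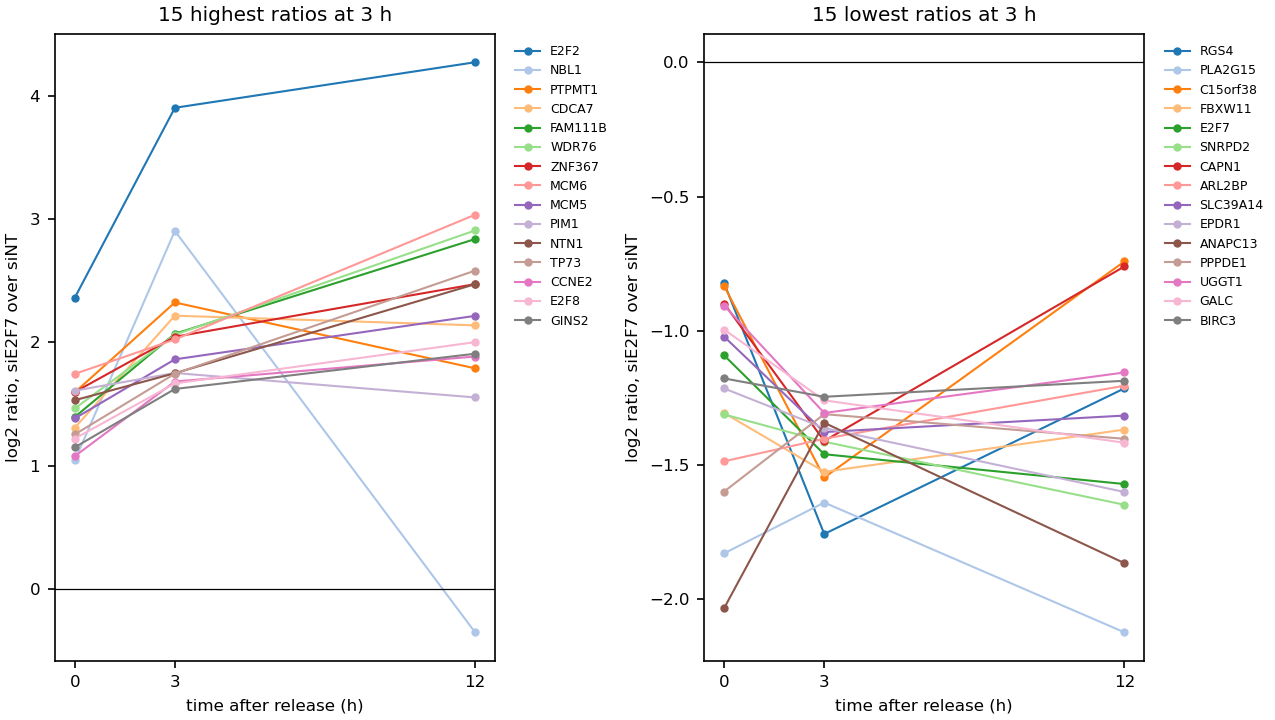
Log2 ratio (siE2F7 over siNT) at 0, 3 and 12 h after release for the 15 genes with the highest (left) and the 15 with the lowest (right) ratio at 3 h. Each line is 1 gene with 1 library per arm and time. NBL1 (2.91 at 3 h) crosses 0 at 12 h, while the other lines stay on 1 side of 0.

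Whether a gene's 3 h ratio stood apart from its 0 and 12 h ratios was tested with limma on the 6 libraries, with time as a block. This treats 0 and 12 h as a pair of values of the knockdown outside 3 h and leaves 1 residual degree of freedom. The error of a gene is thus the difference between its 0 and 12 h ratios. Genes whose ratio changed from 0 to 12 h are therefore harder to call. None of 8841 genes was called (0%) after Benjamini-Hochberg adjustment at 0.05, and 483 (5.46%) had an unadjusted p under 0.05. Single genes therefore cannot be called particular to 3 h. The most positive difference was that of NBL1, a secreted antagonist of BMP signals, whose 3 h ratio exceeded the mean of the other times by 2.56 ± 0.41 (SE; limma, adjusted p = 0.099). NBL1 had 15.999 FPKM in siE2F7 and 2.05 FPKM in siNT at 3 h, and 5.91 and 7.57 FPKM in siE2F7 and siNT at 12 h. A fused entry at its locus, C1orf151-NBL1, had 38.3 FPKM in siE2F7 and 47.1 FPKM in siNT at 3 h, so reads may have been split between them. The most negative was SMN2 at -1.96 ± 0.30 (SE; limma, adjusted p = 0.099), with 12.5 FPKM in siE2F7 and 18.7 FPKM in siNT at 3 h. Its near-identical copy SMN1 went the other way at 1.18 ± 0.21 (adjusted p = 0.17). The sum of SMN1 and SMN2 had 3 h levels of 50.4 FPKM in siE2F7 and 42.7 FPKM in siNT, a ratio of 0.24, against -0.07 at 0 h and -0.05 at 12 h. The difference of CCDC12, which shares no locus, was 1.22 ± 0.19 (adjusted p = 0.099), with 15.1 FPKM in siE2F7 and 10.2 FPKM in siNT at 3 h. These 3 genes, SMN1, SMN2 and CCDC12, were called when the mean FPKM limit was 10 instead of 5. With a pseudocount of 1, NBL1 and TMEM189-UBE2V1 were called as well.

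Ribosomal protein genes had small ratios whose sign at 3 h was mostly opposite to that at 0 and 12 h. This difference between times was not tested for the list. Of 76 cytosolic ribosomal protein genes, 72 had ratios above 0 at 3 h (median 0.13, quartiles 0.09 and 0.18), but 2 at 0 h (median -0.14) and 2 at 12 h (median -0.14). In 68 of the 76 the ratio was above 0 at 3 h and below 0 at both other times, against 12.8% of all genes. The reverse, below 0 at 3 h and above 0 at both other times, held for 0 of the 76 and for 5.41% of all genes. RPL32 had 332 FPKM in siE2F7 and 280 FPKM in siNT at 3 h, a ratio of 0.25, and ratios of -0.17 at 0 h and 12 h. The exceptions at 3 h included RPS26 (-0.39) and RPS25 (-0.21). None was past 1.5-fold. Transcript length and abundance moved with these ratios. Among 272 other genes whose longest transcript is under 1000 bases the median ratio was 0.08 at 3 h, -0.16 at 0 h and -0.11 at 12 h. Among 705 genes of 8000 bases or more the medians were -0.05 at 3 h, 0.08 at 0 h and 0.01 at 12 h. Other genes of 50 FPKM or more had medians of 0.08 at 3 h, -0.04 at 0 h and -0.04 at 12 h. After quantile normalization of the 3 h pair, chosen after seeing the data, the ribosomal median was 0.01. The summed FPKM of the libraries turned the same way, with 368994 in siE2F7 and 351305 in siNT at 3 h, 363727 in siE2F7 and 375954 in siNT at 0 h, and 364310 in siE2F7 and 374077 in siNT at 12 h. The part of length, abundance or scaling in the result was not tested. In the ribosomal list 31 of 76 genes share a locus, and near-identical pseudogene copies make counts of single members uncertain. The proteasome list had a median of 0.11 at 3 h, with 12 of 31 genes above 0 at 3 h only, and PSMB5 was its lowest member, at 47.1 FPKM in siE2F7 and 83.6 FPKM in siNT (-0.83).

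**Figure D5:**
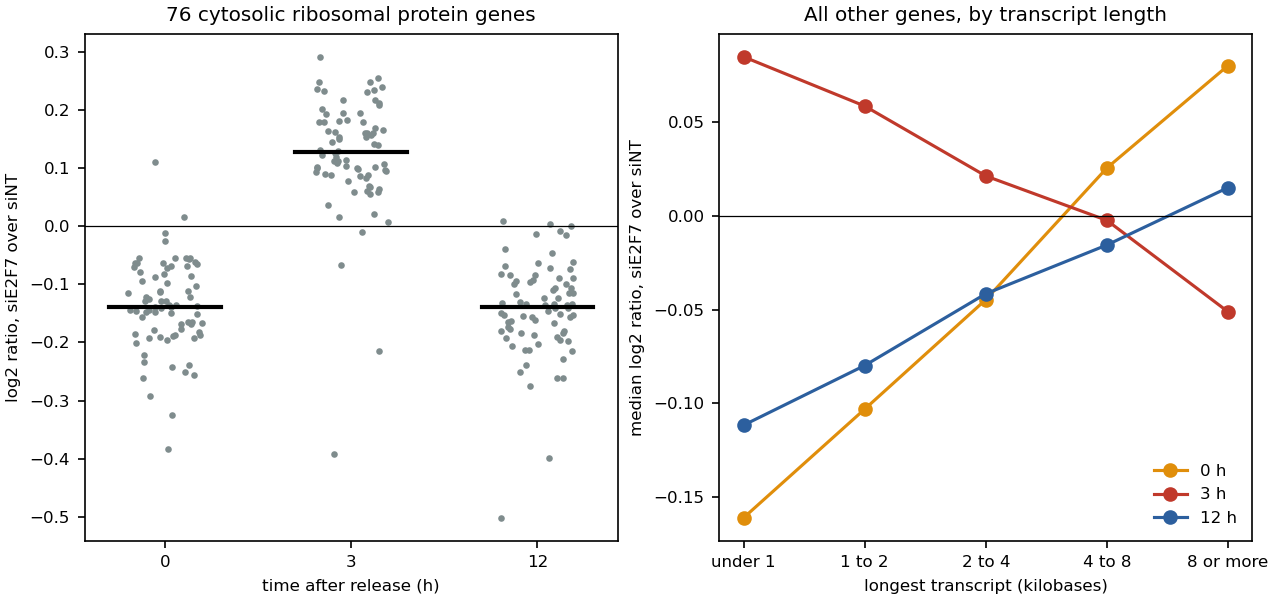
Left, log2 ratio (siE2F7 over siNT) of 76 cytosolic ribosomal protein genes at each time (points) with medians (bars) of -0.14, 0.13 and -0.14 at 0, 3 and 12 h. Right, median log2 ratio of all other genes by the length of their longest transcript, where the 3 h line slopes down and the lines of 0 and 12 h slope up.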

How the data were processed

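RNA of 6 U2OS libraries was measured, 1 per arm and time. The labels' protocols name TRIzol and an RNeasy kit for extraction and an Illumina TruSeq RNA kit for the libraries. The deposited values are FPKM per gene, as computed by the authors. CASAVA 1.8 and the genome build hg19 (GRCh37) appear in the submitters' processing notes, and the columns match a Cuffdiff gene table, per the file headers. No aligner, annotation or filter is given in the sources used here. Sums of FPKM were 368994 in siE2F7 and 351305 in siNT at 3 h. The files hold no counts, so depth is unknown and no counting error can be given. Of the 12475 genes listed at 3 h, 206 were small RNA entries, 10 others were listed at 0 in a library and 3508 were under the mean of 5 FPKM. The symbols of 9 entries had become date numbers and are not named.

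Ratios were computed in Python 3.11.15 with a pseudocount of 0.1, which understates differences of low genes. For the test of 3 h against 0 and 12 h, log2(FPKM + 0.1) was fitted with a variance trend in limma 3.58.1 (R 4.3.3), over genes above 0 in every library whose mean over the 6 reached 5 FPKM. The steps were tried on simulated data. The p-values of the test rest on the difference between the 0 and 12 h ratios, with variance shared across genes. That difference may be technical, since no label says whether the times were separate experiments. It may also hold a change of the ratio over time, which makes genes with such a change harder to call. The members and gene lists were chosen with earlier results of these data known. The text names E2F7, E2F8 and E2F1, up to 5 highest and 3 lowest members of each list, the 15 highest and 15 lowest ratios and the largest differences of the test. A few others, named where a count or comparison turns on them, were chosen after their values were seen. Alternatives covered the pseudocount, the FPKM limit, centring, quantile normalization, the fold limit and shared loci. Transcript lengths are the longest of GENCODE release 29, matched for 97.4% of genes. Results of some genes named by the rule are not reported here.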

Additional observations from a re-analysis of the deposited data

Results flagged for a closer look

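NBL1 was at least 2-fold higher at 3 h, with a log2 ratio of 2.91, but stood at -0.35 at 12 h, the opposite direction. Among the named genes past 2-fold at 3 h it alone changed direction. The difference of 3 h from the mean of 0 and 12 h missed the threshold (limma, adjusted p = 0.099 over 8841 genes).

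In the cytosolic ribosomal protein list 68 of 76 genes had ratios above 0 at 3 h and below 0 at both other times. The difference between times was not tested for the list.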

How the results depend on the processing

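The counts of 56 higher and 33 lower genes were within 1.5 times these values with pseudocounts of 1 and 0.01, a limit of 10 FPKM, centred ratios, without genes that share a locus, and after quantile normalization of the 3 h pair (40 to 57 higher and 22 to 38 lower). With a limit of 1 FPKM they were 100 and 83, with no limit 105 and 92, and at 1.5-fold 256 and 191. The test of 3 h against the other times called 5 genes with a pseudocount of 1, 3 with a limit of 10 FPKM and 0 under the other 7 settings. Leaving out 0 h or 12 h leaves no residual degrees of freedom and gives values only. The 3 h ratio of CCDC12 exceeded that of 0 h by 1.17 and that of 12 h by 1.28, and for NBL1 these were 1.86 and 3.26. Under some setting the median changed sign for the p53, apoptosis, ATF4, anaphase-promoting complex, lysosomal and housekeeping lists, which lay between -0.01 and 0.07 as reported. No gene at least 1.5-fold higher or lower and named by the rule changed sign. The labels number no replicates within an arm and time, so replicates could not be paired. The arms were paired only by time, which the test of 3 h against the other times used as a block. Depth is unknown, so ratios of genes with a mean near 5 FPKM, or under it in 1 arm, are the least certain.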

Other observations

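Other genes at least 2-fold higher at 3 h were outside the lists, and those given here were named after their values were seen. PTN, the growth factor pleiotrophin, had 28.8 FPKM in siE2F7 and 10.2 FPKM in siNT (log2 ratio 1.48). CD200, a surface ligand that restrains myeloid cells, had 8.43 FPKM in siE2F7 and 2.99 FPKM in siNT (1.47). IL17RB, a receptor of interleukin 17 cytokines, was at 1.28. STMN1, the microtubule regulator stathmin, was the most abundant of the 56, with 529 FPKM in siE2F7 and 208 FPKM in siNT (1.35). The DNA methyltransferase gene DNMT3B had 7.28 FPKM in siE2F7 and 2.83 FPKM in siNT (1.33).

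Among the genes at least 2-fold lower, 3 more outside the lists were likewise named after their values were seen. The ceramide kinase gene CERK had 11.3 FPKM in siE2F7 and 25.8 FPKM in siNT (-1.19), and the cholesterol ester hydrolase gene NCEH1 had 6.46 FPKM in siE2F7 and 13.3 FPKM in siNT (-1.03). PIK3CA, the catalytic subunit of a lipid kinase, had 5.37 FPKM in siE2F7 and 10.9 FPKM in siNT (-1.01).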
